A study of Mus musculus with 12 samples.

Results

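The 8 genes described here carry dietary sugar across the small intestinal epithelium: the brush border enzymes Sis, Lct, Mgam and Treh, the hexose transporters Slc5a1, Slc2a2 and Slc2a5, and the fructose kinase Khk. They were taken by symbol from the 18068 genes of the deposited count table. All 8 were found and all 8 passed the filter on low counts, which kept 13750 genes for testing. Starch and table sugar are cut to single sugars by enzymes anchored in the apical membrane of absorptive enterocytes. Glucose and galactose then enter the cell with sodium through SGLT1, the product of Slc5a1, fructose enters through GLUT5, the product of Slc2a5, and sugars leave towards the blood mainly through GLUT2, the product of Slc2a2. Ketohexokinase, the product of Khk, phosphorylates fructose inside the cell, the step that commits it to metabolism. Lactase is high in suckling mice and lower after weaning, whereas sucrase-isomaltase and trehalase appear at weaning.

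The samples were enteroids, which are intestinal epithelium grown from its stem cells in culture, here from the ileum of wild-type C57Bl/6 mice. Directional poly(A) RNA sequencing gave 12 libraries in 4 groups of 3. One group was untreated, another received butyrate at 1 mM for 48 h, another received 20 ng/mL of IL-13 for 72 h, and the last received both agents at those doses and times. Butyrate is a short-chain fatty acid made by gut bacteria that inhibits histone deacetylases, and IL-13 is a type 2 cytokine that signals through STAT6. The design asks what IL-13 does to the enteroids with and without butyrate. No group carries a deletion or transgene, and the labels give neither the age of the mice nor a vehicle for the untreated group. They also do not say whether the 3 libraries of a group came from separate mice or cultures, so the p-values given reflect only how these libraries spread, which may be technical.

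Library totals ran from 13867982 to 24294456 counts, with the 6 libraries given IL-13 at the lower end (13867982 to 15618074). All replicate pairs differed by more than sampling noise, the chi-square over its degrees of freedom being between 3.9 and 37.68, and each library was counted separately. The labelled cell type was checked against markers: 7 epithelial genes, Epcam and Vil1 among them, summed to between 6332 and 9011 CPM (counts scaled to a common library size with TMM factors, which offset differences in composition) in every library, while 5 mesenchymal markers summed to at most 2.44 CPM and 3 endothelial ones to at most 1.23 CPM. The 4 immune markers summed to between 8.83 and 17.2 CPM, from Itgam (85 to 212 counts per library) and Cd68 (45 to 96) for the most part, with the pan-leukocyte gene Ptprc at 1 to 10 counts. Butyrate replicate 2 and butyrate + IL-13 replicate 3 stood apart in Lars2, a mitochondrial tRNA synthetase gene, at 5048 and 6983 CPM against 423 to 1434 in the other 10 libraries. Calls of the 8 genes that change without these libraries are given both ways. No member shared exon bases with another annotated gene except Treh, with 2 bases of Phldb1 on the opposite strand.

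The stretch of 250 bases before the start of transcription is shown for Sis, Lct and Slc5a1, from RefSeq on GRCm38.p6 (mm10), because IL-13 lowered Lct and raised Slc5a1 and butyrate raised Sis in the results below. Capitals mark TTTAT, a core of the sites bound by the intestinal factor CDX2, or its reverse complement ATAAA. Sis lies on the minus strand at chr3:72967864-72968113, Lct on the minus strand at chr1:128328319-128328568 and Slc5a1 on the plus strand at chr5:33103969-33104218, each printed 5′ to 3′ along its gene.
Sis: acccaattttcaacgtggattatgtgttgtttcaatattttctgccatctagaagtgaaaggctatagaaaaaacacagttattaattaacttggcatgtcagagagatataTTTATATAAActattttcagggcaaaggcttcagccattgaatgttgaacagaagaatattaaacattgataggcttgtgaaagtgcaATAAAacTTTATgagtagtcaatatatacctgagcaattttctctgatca
Lct: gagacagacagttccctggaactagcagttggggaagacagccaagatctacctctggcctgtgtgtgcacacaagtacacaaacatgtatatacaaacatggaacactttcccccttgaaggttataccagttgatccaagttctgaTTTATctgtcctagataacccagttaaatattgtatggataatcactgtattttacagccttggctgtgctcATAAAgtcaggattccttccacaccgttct
Slc5a1: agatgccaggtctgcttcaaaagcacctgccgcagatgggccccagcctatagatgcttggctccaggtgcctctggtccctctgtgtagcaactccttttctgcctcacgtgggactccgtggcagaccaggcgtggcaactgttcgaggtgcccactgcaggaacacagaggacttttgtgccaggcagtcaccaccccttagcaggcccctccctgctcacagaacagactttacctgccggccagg
Within the window of 250 bases before and 50 after the start, searched on both strands, TTTAT was found in 3 of the 8 members, against 40% of 32851 mouse promoters. In Sis its matches began at positions -138, -133, -50 and -43 from the start, and in Lct at -102 and -30. Mgam had it at -142, -29 and 37, and the window of Slc5a1 did not contain these letters. The GATA core AGATAA, in 11.2% of promoters, was found in Lct at -101, where it overlaps the CDX core, and at -90, and in Mgam at -208 and -66. The E-box CACGTG, the core of the sites of the glucose-responsive factor ChREBP, was present in Khk at -71, in Mgam at -131 and in Slc5a1 at -143, against 7.15% of promoters. TATAAA, the TATA box, was found in Sis at -138 and -134 and in Mgam at -30 and 37, against 13.6% of promoters. Each of these matches contains a CDX core match, at -138 and -133 in Sis and at -29 and 37 in Mgam. These are matches of letters, with no measurement of binding.

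Per kilobase of exon, which allows genes to be compared, Slc5a1 was the highest member in untreated enteroids at 436 ± 36.8 CPM per kb (SD, n = 3), followed by Sis at 129 ± 13.2 and Khk at 128 ± 4.67, whose libraries overlapped. Mgam and Slc2a2 also overlapped, at 57.2 ± 3.3 and 56.8 ± 1.98 CPM per kb. Lct (25.0 ± 0.704), Treh (7.13 ± 0.177) and Slc2a5 (4.87 ± 0.302) followed in that order without overlap. The order was the same with butyrate alone. In the IL-13 group Slc2a2 (72.9 ± 2.49) stood above Mgam (53.6 ± 13.4) without overlap. Slc2a5 (8.36 ± 0.714) likewise stood above Treh (5.94 ± 0.724) there, and Lct (10.6 ± 2.71) overlapped Slc2a5. With both agents Slc5a1 reached 1012 ± 96.5 CPM per kb, Slc2a5 rose to 14.4 ± 1.76, and Lct, at 10.6 ± 4.16, overlapped it, while Treh was lowest at 6.09 ± 1.4. Length taken as the longest transcript instead of all exons moved the untreated level per kb of Mgam to 76.7, of Sis to 161 and of Khk to 145, so that Mgam no longer lay beside Slc2a2 (58.7). In the IL-13 group that length gave 75.3 for Slc2a2 and 71.9 for Mgam.

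**Figure D1:**
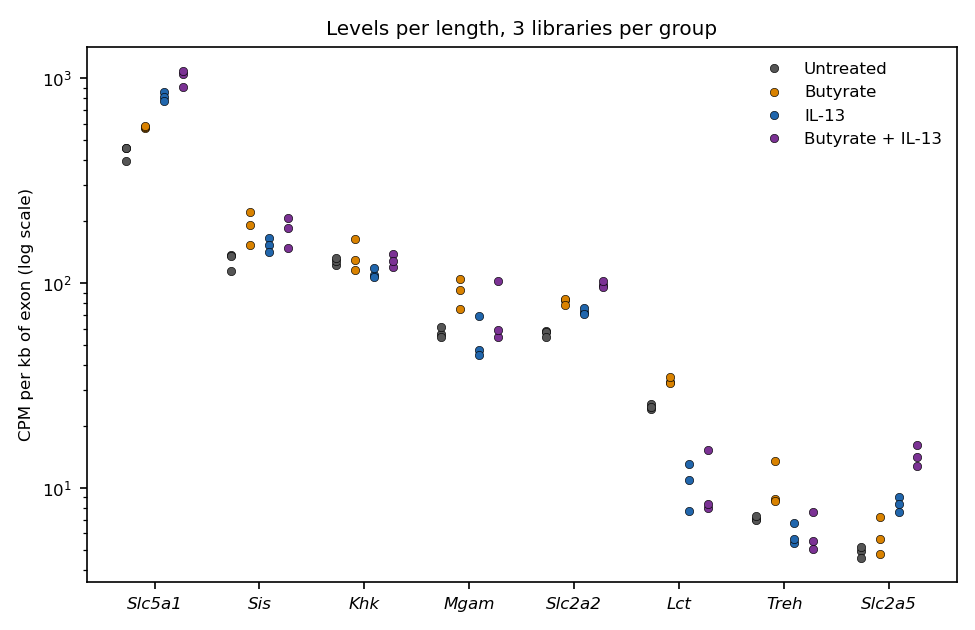
CPM per kb of exon (log axis) of the 8 genes, ordered by their mean in untreated enteroids, with 1 point per library and 3 libraries per group. Slc5a1 is highest in every group (394 to 1081 CPM per kb). Slc2a5 lies below Treh in untreated and butyrate libraries and above it with IL-13 alone and with both agents.

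IL-13 alone raised the transporter genes Slc5a1, Slc2a2 and Slc2a5 and lowered the lactase gene Lct, and Sis, Mgam, Treh and Khk did not pass the threshold. Butyrate alone raised Sis, Slc5a1 and Slc2a2, and also Mgam, a call that 14 of 20 alternative fits lost. With both agents, all 3 transporters stood at their highest, Sis stood above untreated, and Lct had a mean of 67.7 CPM against 68.0 with IL-13 alone. Relative to library size adjusted by its TMM factor, the 8 genes together came to 0.40% ± 0.0277 in untreated enteroids and 0.555% ± 0.0326 with butyrate. They came to 0.568% ± 0.0301 with IL-13 and 0.706% ± 0.0818 with both (SD, n = 3). These are not shares of raw counts, by which the rise with both agents is smaller. The TMM factor was at least 1.0843 in untreated libraries and at most 0.9056 with both agents. Slc5a1 alone made up 43.9% to 45.5% of the members' sum in untreated libraries and 56.7% to 59.8% with IL-13. In bulk RNA, fewer cells of a type and less RNA per cell cannot be told apart.

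A gene was called at an adjusted p under 0.05 (edgeR quasi-likelihood test, Benjamini-Hochberg over the 13750 genes). For IL-13 over untreated 4 of 8 members were called, 3 higher and 1 lower, which is near the 43.5% of all tested genes (21.8% higher and 21.7% lower), so the count by itself is not a result about these genes. For butyrate over untreated 4 of 8 were called, all higher, against 7.9% of tested genes in either direction and 5.14% higher, and all 8 estimates were above 0, with a median log2 fold change of 0.47 against -0.01 over all genes. For both agents over IL-13 3 of 8 were called, all higher, against 21.2% in either direction and 9.85% higher, with a median of 0.28 against -0.01. For both agents over butyrate 5 were called, 3 higher and 2 lower, beside 47.7% of tested genes (22.9% higher, 24.9% lower). Both agents over untreated gave 5 calls, 4 higher and 1 lower, beside 59.7% of tested genes (28.2% higher, 31.5% lower). The comparisons share libraries and are not independent of each other, and the members were chosen with earlier results of these data known. Counts above the share of all tested genes are therefore descriptions. Scaling by library total alone, with no TMM factor, moved the median of all genes by -0.06 to -0.29 on the log2 scale in these comparisons, and the share of called genes that were higher with IL-13 over untreated from 50.1% to 28.1%. The members' calls higher and lower were then 3 and 2, 3 and 0, 2 and 0, 2 and 4, and 3 and 3, in the order above. The count for butyrate over untreated dropped to 1, Slc2a2, without untreated replicate 3, and was 6 without both libraries high in Lars2.

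**Figure D2:**
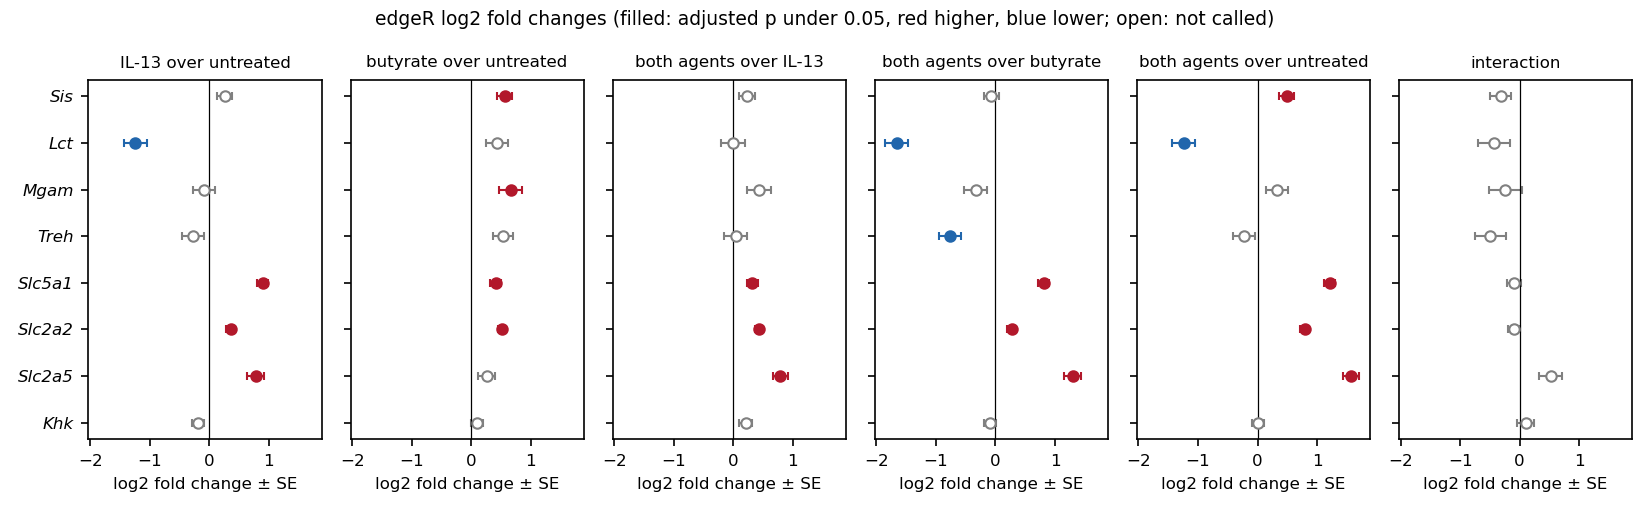
log2 fold change ± SE of the 8 genes in 5 comparisons and the interaction from the edgeR fit of all 12 libraries. Filled points passed an adjusted p of 0.05, red higher and blue lower. Slc5a1, Slc2a2 and Slc2a5 lie to the right of 0 in all 5 comparisons, while Lct lies at -1.24 or below in the 3 comparisons that add IL-13.

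Markers of cell types moved as well. Of 18 absorptive enterocyte markers that are not sugar genes, 17 were tested, and with IL-13 over untreated 9 of them rose and 3 fell, where 43.5% of all genes were called. With butyrate over untreated 6 rose and 1 fell (12 and 1 without both libraries high in Lars2), where 7.9% of all genes were called. With both agents over untreated 11 rose and 3 fell (8 and 5 with scaling by library total alone, 11 and 5 without both libraries high in Lars2), where 59.7% were called. Their summed level lay between 5317 and 5844 CPM in untreated libraries, between 7249 and 8178 with butyrate, between 7314 and 8004 with IL-13 and between 8223 and 12896 with both. Apoa1, Apob and Apoa4 had the highest means of the 18 with both agents (1937, 1868 and 1088 CPM), while Fabp2 went from 43.4 untreated to 6.08. Aqp8 had only 6 counts in all libraries together. The summed level of 6 proliferation markers lay between 692 and 708 CPM in untreated enteroids and between 601 and 692 with butyrate, and was lower with IL-13 (224 to 313) and both agents (169.6 to 194). Other cell types moved in the same comparisons. With both agents over untreated, all 8 goblet markers fell (median log2 fold change -2.25), from a summed 3111 to 4632 CPM to between 1329 and 1446, as did all 8 enteroendocrine markers (-2.37), which also all fell with butyrate alone (-1.33). The enteroendocrine sum lay between 1008 and 1353 CPM untreated, 438 and 545 with butyrate, 1184 and 1272 with IL-13, and 163 and 297 with both. Of 7 tuft markers tested, 6 rose with IL-13 over untreated (median 2.11) and 5 fell with butyrate over untreated (-1.38). The tuft sum was 16.3 to 25.1 CPM untreated, 79 to 89.9 with IL-13, 7.59 to 11.9 with butyrate and 16.4 to 26.6 with both. All 5 stem markers fell with both agents over untreated (-1.87), and of 6 Paneth markers tested 1 rose and 5 fell (-1.35). Without both libraries high in Lars2, 4 fell in each of these 2 lists. The part of these shifts in the changes of the sugar genes was not tested.

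Sucrase-isomaltase, encoded by Sis (ENSMUSG00000027790, chr3:72888557-72967863, minus strand, mm10 as are all positions below), splits sucrose and the branch points of starch. Sis stood at 1019, 1017 and 847 CPM in the untreated libraries, 1432, 1658 and 1153 with butyrate, 1238, 1148 and 1061 with IL-13, and 1385, 1113 and 1557 with both agents. In CPM with TMM factors, every treated library exceeded every untreated one, and the 3 treated groups overlapped each other. By library total alone the treated libraries did not all stand above. Butyrate + IL-13 replicate 2, with 13972 Sis counts of 13867982, lay below untreated replicate 1, with 24234 of 21945451. Sis was higher with butyrate by 0.56 ± 0.13 (log2 ± SE, edgeR adjusted p = 0.010) and with both agents over untreated by 0.49 ± 0.13 (adjusted p = 0.0031). With IL-13 alone the difference of 0.26 ± 0.13 did not pass (adjusted p = 0.11), although the authors' deposited table gives an FDR of 0.00251 for a log2 fold change of 0.263. It passed in a fit of those groups alone (edgeR adjusted p = 0.0054) and without both libraries high in Lars2 (0.038). The butyrate call was lost without untreated replicate 3 (0.47, adjusted p = 0.079), and the call for both agents was lost with scaling by library total alone (0.20, adjusted p = 0.17).

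Maltase-glucoamylase, encoded by Mgam (ENSMUSG00000068587, chr6:40628831-40769123, plus strand), releases glucose from starch fragments. Mgam was at 490.3, 529.6 and 474 CPM in untreated libraries and at 802, 912 and 653 with butyrate, with no overlap. With IL-13 it was at 411, 601 and 388, and with both agents at 476, 512 and 896, and these groups overlapped each other and the untreated one. Mgam rose with butyrate by 0.66 ± 0.20 (edgeR adjusted p = 0.044), a call close to the threshold that 14 of 20 alternative fits lost (adjusted p from 0.0056 to 0.36 over all 20, the highest without butyrate replicate 2). The replicate block and DESeq2 were among them, at adjusted p = 0.076 and 0.13. No other comparison was called for Mgam, but single libraries decided several. Both agents over IL-13 passed without IL-13 replicate 2 (0.65, adjusted p = 0.039) or butyrate + IL-13 replicate 1 (0.61, adjusted p = 0.033), and both agents over untreated passed without the latter (0.54, adjusted p = 0.026). The full fit gave 0.43 ± 0.20 for both agents over IL-13 (adjusted p = 0.13), which dropped to 0.10 (adjusted p = 0.74) without butyrate + IL-13 replicate 3 and to 0.08 (adjusted p = 0.76) without both libraries high in Lars2. Both agents over butyrate passed as lower without butyrate + IL-13 replicate 3 (-0.65, adjusted p = 0.0037) and with scaling by library total alone (-0.57, adjusted p = 0.020). The highest library of each butyrate group, 912 and 896 CPM, was the one high in Lars2; without both, both agents over butyrate read -0.56 (adjusted p = 0.011) instead of -0.33 ± 0.19 (adjusted p = 0.17), and both agents over untreated read -0.01 instead of 0.33. The part of whatever sets these libraries apart was not tested.

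Lactase, the product of Lct (ENSMUSG00000026354, chr1:128284756-128328318, minus strand), splits the milk sugar lactose. Lct was at 156, 165 and 159 CPM in untreated libraries, at 212, 209.6 and 224 with butyrate, at 49.5, 84.0 and 70.4 with IL-13 and at 51.4, 53.3 and 98.4 with both agents. All 6 libraries with IL-13 lay below all 6 without it, and the groups with IL-13 overlapped each other. Lct fell with IL-13 by 1.24 ± 0.19 on the log2 scale (edgeR adjusted p = 5e-05), to 0.425 of its untreated level. Adding IL-13 to butyrate gave -1.66 ± 0.19 (adjusted p = 1.5e-06), and both agents over untreated gave -1.24 ± 0.19 (adjusted p = 2.6e-05). These 3 calls held under every alternative, including the fit without both libraries high in Lars2. Butyrate over untreated gave 0.43 ± 0.19 (adjusted p = 0.19), a difference that passed in a fit of those groups alone (adjusted p = 0.0057), without butyrate + IL-13 replicate 3 (0.037) and without both libraries high in Lars2 (0.036). Both agents over IL-13 gave -0.0042 ± 0.20 (adjusted p = 0.99), with no stable direction; without both libraries high in Lars2 it read -0.38 (adjusted p = 0.076). Whether butyrate acted on Lct differently with IL-13 present was tested as the interaction, at -0.43 ± 0.27 (adjusted p = 0.65), or -0.82 (adjusted p = 0.052) without both libraries high in Lars2.

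Trehalase, the product of Treh (ENSMUSG00000032098, chr9:44673233-44686305, plus strand), splits trehalose, a sugar of fungi and insects. It was the enzyme with the fewest counts, 130 to 490 per library. Treh was at 14.5, 14.3 and 15 CPM in untreated libraries, 18, 17.7 and 27.7 with butyrate, 13.8, 11.1 and 11.6 with IL-13, and 15.7, 10.4 and 11.3 with both. The butyrate libraries lay above all others, and butyrate replicate 3 was highest. One comparison was called: with both agents Treh was lower than with butyrate, at -0.76 ± 0.18 (edgeR adjusted p = 0.0021). The difference of 0.53 ± 0.17 with butyrate over untreated did not pass (adjusted p = 0.072), but did with no filter (0.048) and without butyrate replicate 2 (0.033), butyrate + IL-13 replicate 1 (0.038) or both libraries high in Lars2 (0.025). Both agents over untreated, at -0.23 ± 0.18, passed with scaling by library total alone (-0.52, adjusted p = 0.018).

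**Figure D3:**
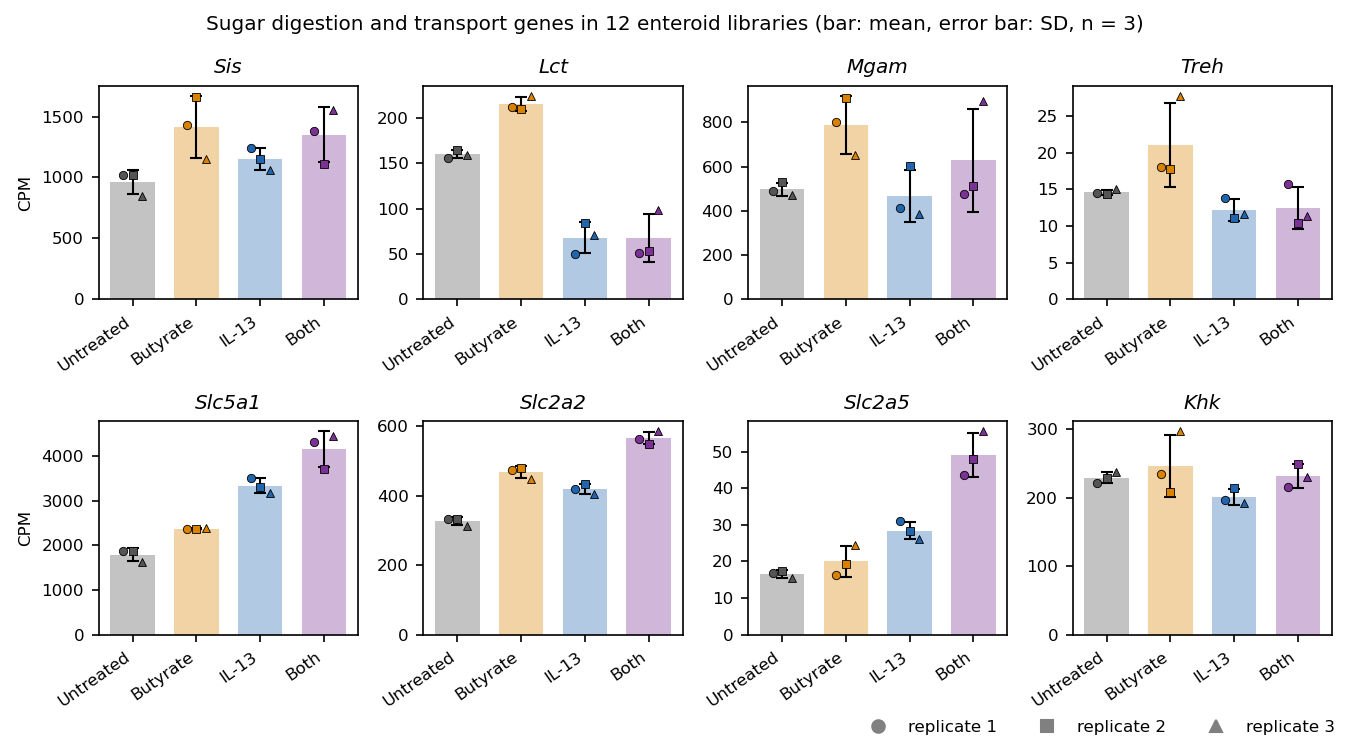
CPM of each gene in the 12 libraries (points, with symbols for replicates 1, 2 and 3), with group means (bars) and SD (error bars, n = 3). The transporters in the lower row are highest in the group given both agents, and Lct is low in both groups given IL-13 (49.5 to 98.4 CPM). The Sis, Lct, Mgam, Treh and Khk bars are highest with butyrate.

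SGLT1 is the sodium-coupled uptake route for glucose and galactose, and its gene Slc5a1 (ENSMUSG00000011034, chr5:33104219-33162872, plus strand) was the most abundant member. Slc5a1 was at 1881, 1873 and 1616 CPM in untreated libraries, 2359.6, 2368 and 2395 with butyrate, 3512, 3307 and 3174 with IL-13, and 4321, 3701 and 4438 with both agents. In CPM with TMM factors, the 4 groups did not overlap at any step of that order. By library total alone, butyrate + IL-13 replicate 2 (46467 of 13867982 counts) lay below IL-13 replicate 1 (48714 of 14239405). IL-13 raised Slc5a1 by 0.90 ± 0.09 (log2 ± SE, edgeR adjusted p = 1.7e-07), a fold change of 1.86, and butyrate by 0.41 ± 0.09 (adjusted p = 0.0054). Both agents stood 1.21 ± 0.09 above untreated (adjusted p = 1.5e-09), 0.81 ± 0.09 above butyrate (adjusted p = 4.7e-07) and 0.32 ± 0.09 above IL-13 (adjusted p = 0.013). The last call was lost with scaling by library total alone (0.19, adjusted p = 0.092) and without IL-13 replicate 3 (adjusted p = 0.067), and the butyrate call missed the threshold without untreated replicate 3 (0.34, adjusted p = 0.051). The interaction was -0.09 ± 0.12 (adjusted p = 0.89).

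GLUT2, encoded by Slc2a2 (ENSMUSG00000027690, chr3:28697903-28728356, plus strand), moves glucose, galactose and fructose down their gradients. Its replicates lay close together, with a coefficient of variation from 3.18% to 3.64% in the 4 groups. Slc2a2 was at 334, 332 and 314 CPM in untreated libraries, 474, 481 and 449 with butyrate, 418, 434 and 406 with IL-13, and 564, 549 and 585 with both. In CPM with TMM factors the groups did not overlap, and here, unlike for Slc5a1, the butyrate group stood above the IL-13 group. By library total alone, butyrate + IL-13 replicate 2 (6891 of 13867982 counts) lay below butyrate replicate 2 (9255 of 18302012). Butyrate raised Slc2a2 by 0.52 ± 0.07 (edgeR adjusted p = 0.00013), and adding butyrate to IL-13 raised it by 0.43 ± 0.07 (adjusted p = 0.00032). IL-13 raised it by 0.36 ± 0.07 (adjusted p = 0.00048) alone and by 0.27 ± 0.07 (adjusted p = 0.0039) on top of butyrate, and both agents over untreated gave 0.79 ± 0.07 (adjusted p = 2.9e-08). The rise on top of butyrate was not seen with scaling by library total alone (0.04, adjusted p = 0.61). The interaction was -0.09 ± 0.10 (adjusted p = 0.86).

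GLUT5, the fructose carrier of the brush border, is encoded by Slc2a5 (ENSMUSG00000028976, chr4:150119283-150144169, plus strand), the lowest member per length in untreated enteroids. Slc2a5 was at 16.7, 17.5 and 15.5 CPM in untreated libraries, 16.3, 19.2 and 24.5 with butyrate, 30.9, 28.4 and 26.0 with IL-13, and 43.7, 48.0 and 55.5 with both agents. In CPM with TMM factors, untreated and butyrate libraries overlapped, IL-13 libraries lay above them, and those given both lay above all others. By library total alone, IL-13 replicate 3 (382 of 15008598 counts) did not lie above butyrate replicate 3 (433 of 17006538). IL-13 raised Slc2a5 by 0.78 ± 0.14 (edgeR adjusted p = 0.00018), while butyrate alone gave 0.26 ± 0.14 (adjusted p = 0.28). Butyrate on top of IL-13 raised Slc2a5 by 0.79 ± 0.13 (adjusted p = 0.00048), IL-13 on top of butyrate by 1.30 ± 0.14 (adjusted p = 3.6e-07), and both agents over untreated by 1.57 ± 0.14 (adjusted p = 2.1e-08), a fold change of 2.96. The interaction, which asks whether butyrate did more with IL-13 than without, was 0.52 ± 0.19 and did not pass (adjusted p = 0.28, unadjusted p = 0.014). Without butyrate replicate 3 it was 0.69 with an adjusted p of 0.045.

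No member passed the test of the interaction, with edgeR or with DESeq2, where edgeR called 0.865% of all tested genes, and 1 member, Slc2a5, had an unadjusted p under 0.05. An effect of butyrate that passed in one background and not in the other, as for Sis, Mgam and Slc2a5, is therefore not shown to differ between them.

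Khk (ENSMUSG00000029162, chr5:30921556-30931246, plus strand) encodes ketohexokinase, the enzyme after GLUT5 in fructose handling. It was at 221, 229 and 238 CPM in untreated libraries, 234, 209 and 297 with butyrate, 196, 214 and 192 with IL-13, and 215, 249.8 and 231 with both. In CPM with TMM factors, the IL-13 libraries were below the untreated libraries and those given both agents, and all other pairs of groups overlapped. By library total alone, IL-13 replicate 2 (3122 of 14995778 counts) lay above butyrate + IL-13 replicate 1 (2719 of 14054420). No comparison was called: IL-13 over untreated gave -0.19 ± 0.10 (edgeR adjusted p = 0.15) and both agents over untreated 0.01 ± 0.10 (adjusted p = 0.91), which read -0.28 (adjusted p = 0.025) with scaling by library total alone. The IL-13 difference passed with scaling by library total alone (-0.36, adjusted p = 0.0081), in a fit of those groups alone (0.011) and without butyrate replicate 3 (0.045). Both agents over butyrate, at -0.09 ± 0.10, likewise passed with scaling by library total alone (-0.32, adjusted p = 0.015). For IL-13 over untreated the authors' deposited table gives Khk an FDR of 0.0149 at a log2 fold change of -0.187. For the other 6 genes the authors' deposited table and the edgeR fit fell on the same side of 0.05 in that comparison.

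Ratios of raw counts within a library do not depend on how libraries are scaled. The ratio of Slc5a1 to Lct counts was 12, 11.3 and 10.1 in untreated libraries and 11.1, 11.3 and 10.7 with butyrate. It was 70.9, 39.3 and 45.1 with IL-13 and 84.1, 69.5 and 45.1 with both agents, so every library with IL-13 stood above every library without it. The ratio of Slc5a1 to Slc2a2 counts was 5.47 ± 0.278 in untreated libraries, 7.95 ± 0.403 with IL-13, 5.08 ± 0.226 with butyrate and 7.33 ± 0.51 with both (SD, n = 3), again with no overlap between libraries with and without IL-13. Between the fructose genes, Khk had 13.9 ± 1.28 counts per count of Slc2a5 in untreated libraries, 12.5 ± 1.76 with butyrate, 7.1 ± 0.65 with IL-13 and 4.76 ± 0.54 with both. Sis per Mgam had group means from 1.79 to 2.55; the butyrate libraries (1.77 to 1.82) lay below the IL-13 libraries (1.91 to 3.01), and all other pairs of groups overlapped. These ratios are descriptions, and no test was made of them.

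**Figure D4:**
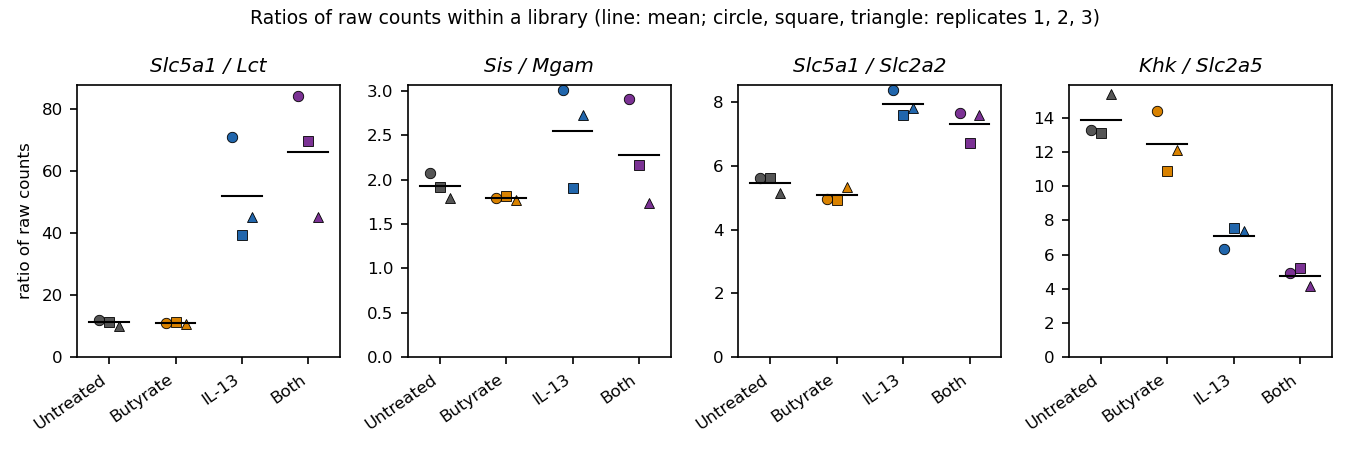
Ratios of raw counts of pairs of genes in each of the 12 libraries (circle, square and triangle for replicates 1, 2 and 3, line for the group mean). The ratio of Slc5a1 to Lct is 10.1 to 12 without IL-13 and 39.3 to 84.1 with it, and the ratio of Khk to Slc2a5 is 4.16 to 5.2 with both agents.

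Genes that handle the sugar once inside the cell were counted from lists of pathway genes, beside which the share of all tested genes called was 43.5% with IL-13 over untreated, 7.9% with butyrate over untreated, 21.2% with both agents over IL-13 and 59.7% with both agents over untreated. Of 19 glycolysis genes tested, 13 rose and 2 fell with IL-13 over untreated (median log2 fold change 0.53, all genes -0.01), 6 rose with butyrate over untreated (median 0.24) and 15 rose and 2 fell with both agents over untreated (median 0.98, all genes -0.05). With scaling by library total alone, the counts were 12 and 3, 5 and 1, and 13 and 3. Without both libraries high in Lars2, where 20 were tested, 10 rose with butyrate over untreated. Hk1, a hexokinase that traps glucose in the cell, went from 100.1 ± 3.36 CPM to 260.3 ± 18.1 with IL-13, 154 ± 16.7 with butyrate and 409 ± 30 with both. Ldha, which turns pyruvate into lactate, went from 1154 ± 53.6 to 2903 ± 150.2 CPM with IL-13 (1.33 ± 0.09, edgeR adjusted p = 1e-09). Pklr, a pyruvate kinase gene responsive to ChREBP, was not changed past the threshold by IL-13 (625 ± 47.4 to 615 ± 24.9 CPM) and rose to 829 ± 94 with butyrate (0.41 ± 0.10, edgeR adjusted p = 0.017).

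Of 8 genes of gluconeogenesis and glucose release, 1 rose and 5 fell with IL-13 over untreated, where 43.5% of all tested genes were called. Their median log2 fold change was -0.41, against -0.01 over all genes. G6pc, the catalytic subunit of glucose-6-phosphatase that frees glucose for export, fell from 18.8 ± 2.86 to 2.15 ± 0.735 CPM (-3.13 ± 0.22, edgeR adjusted p = 3.9e-09) and was at 3.05 ± 0.804 with both agents. The riser was Pcx, pyruvate carboxylase, from 43 ± 0.313 to 178 ± 8.91 CPM. Among 13 genes of fructose and galactose metabolism other than Khk, 1 rose and 4 fell with IL-13 over untreated, a share near the 43.5% of all tested genes. Their median was -0.06, against -0.01 over all genes. When butyrate was added to IL-13, 6 rose (3 with scaling by library total alone), where 21.2% of all tested genes were called.

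Other hexose transporters of the SLC2 and SLC5 families gave 4 genes that rose and 3 that fell of 13 tested with IL-13 over untreated, where 43.5% of all tested genes were called. With both agents over untreated 6 rose and 3 fell, where 59.7% were called. Without both libraries high in Lars2 the counts were 6 and 3, and 7 and 4, of 14 tested. Slc2a1, which encodes the widely expressed glucose carrier GLUT1, had the smallest adjusted p of the list with both agents over untreated, at 137 ± 2.54 CPM untreated, 199.6 ± 22 with butyrate, 425 ± 17.1 with IL-13 and 654 ± 23.6 with both (2.26 ± 0.09 for both over untreated, edgeR adjusted p = 4.2e-13).

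Of 14 transcription factors known to act on enterocyte sugar genes, 3 rose and 3 fell with IL-13 over untreated, a share near the 43.5% of all tested genes. With butyrate over untreated 0 rose and 2 fell, where 7.9% of all tested genes were called. Cdx2, whose core site is marked in the sequences above, fell from 519.7 ± 5.25 to 334 ± 23.2 CPM with IL-13 (-0.64 ± 0.09, edgeR adjusted p = 2.7e-05) and was at 491 ± 55.5 with butyrate and 339 ± 35.7 with both. The part of Cdx2 in the changes of the sugar genes was not tested. Gata4 (309 ± 17.5 to 332 ± 35.8 CPM with IL-13) was not called in any comparison. Hnf4a rose with both agents over untreated, from 2007 ± 64.8 to 2836 ± 96.2 CPM (0.50 ± 0.07, edgeR adjusted p = 8.8e-06). Mlxipl, the gene of ChREBP, fell with IL-13 from 343 ± 28.9 to 245 ± 10.6 CPM (-0.49 ± 0.09, edgeR adjusted p = 0.0004). Of 9 genes of ChREBP and its glucose response, 2 rose and 3 fell in that comparison, where 43.5% of all tested genes were called. Their median log2 fold change was -0.02, against -0.01 over all genes.

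Across the 12 libraries, the gene most alike in pattern was sought for each member among 9620 genes with a mean of at least 10 CPM over all libraries, by Pearson r of log2 CPM. The libraries fall into 4 groups, so r includes the differences between groups, and it is given as a description. For Slc5a1 it was Fam162a (r = 0.994), followed by Vapa and the chaperone gene Dnajb9 (both 0.99). For Slc2a2 it was Fads6 (0.977), for Slc2a5 Ralb (0.983), and for Lct C2cd3 (0.983), followed by the sterol transporter gene Abcg8 (0.975). The closest gene was less alike for Sis, Clec2e (0.948), for Khk, the lysosomal fucosidase gene Fuca1 (0.933), for Treh, Accn2 (0.9), and for Mgam, the lysosomal lipase gene Lipa (0.887).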

How the data were processed

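The deposited table gives the read count of each gene in each of the 12 libraries as whole numbers that the authors left unnormalised. Its headers also name the authors' DESeq p-value, FDR and log2 fold change for IL-13 against untreated, and state that genes were kept where the corrected p of that comparison was below 1. Reads were placed on mm10, per the submitters' processing notes. The aligner, the counter and any use of strand: not given in the sources used here. Columns headed US were taken as the untreated libraries. Summing the rows of 23 symbols turned 18092 rows into 18068 genes.

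All 12 libraries entered 1 fit with a coefficient per group in edgeR 4.0.16 (R 4.3.3: glmQLFit, robust, TMM, filterByExpr), with 8 residual degrees of freedom and a biological coefficient of variation of 10.2%. Adjusted p-values are Benjamini-Hochberg over 13750 genes. Every adjusted p in the text is from edgeR unless DESeq2 1.42.0 or the authors' deposited table is named. Levels per kb used exon lengths of GENCODE vM21 for GRCm38. The named genes were the members, fixed regulators and enzymes, from each pathway list the called genes with the smallest adjusted p, and the genes most alike in pattern; some named genes are not reported here. Members and lists were chosen with earlier results of these data known. The scripts were tested on simulated data.

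Alternatives were RLE scaling, scaling by library total alone, testing without the filter, keeping genes with at least 50 counts on average, a replicate block, a fit of only the groups compared, DESeq2, each library left out in turn, and leaving out both libraries high in Lars2.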

Additional observations from a re-analysis of the deposited data

How the results depend on the processing

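Of 48 pairs of a member and a comparison, 21 were called. In 15 of these the direction and the call held under all alternatives that could be fitted, and in 0 did the direction reverse. The pairs that lost or gained a call are given with each gene above. Estimates near 0 changed sign: Lct for both agents over IL-13 read 0.02 with RLE scaling and 0.02 with DESeq2, Treh for both agents over IL-13 read -0.09 with scaling by library total alone, and Khk for both agents over untreated read -0.28 with that scaling (adjusted p = 0.025) and -0.0025 with a filter at a mean of 50 counts. Mgam for both agents over untreated read -0.01 without both libraries high in Lars2. The cause was not tested.

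With 1 library left out at a time, the ranges of log2 fold change that crossed 0 were -0.32 to 0.02 for Mgam with IL-13 over untreated, -0.05 to 0.21 for Khk with butyrate over untreated, -0.36 to 0.18 for Lct and -0.14 to 0.15 for Treh with both agents over IL-13, -0.19 to 0.06 for Sis and -0.2 to 0.06 for Khk with both agents over butyrate, -0.04 to 0.1 for Khk with both agents over untreated, and -0.0032 to 0.26 for its interaction. Members called ranged from 1 to 5 for butyrate over untreated and from 0 to 1 for the interaction. The lowest was 1 without untreated replicate 3. Calls over all genes for butyrate over untreated dropped from 1086 to 607, 559 and 624 without untreated replicate 2, untreated replicate 3 and butyrate replicate 1, and for both agents over IL-13 from 2912 to 1935 without butyrate + IL-13 replicate 3. Interaction calls over all genes were 119, ranged from 55 to 213 with 1 library left out, and were 245 with DESeq2.

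With a replicate block, 3 members were called for butyrate over untreated in place of 4, with Mgam lost, and the counts of the other comparisons stayed at 4, 3, 5, 5 and 0. The deviations of same-numbered libraries correlated over 0.1 in 4 of 18 pairs (from -0.37 to 0.27), and 3 of 12 libraries correlated best with their own number, so the numbers were not taken to pair the libraries. Scaling by library total alone lowered the share of called genes that were higher from 65.1% to 47% for butyrate over untreated, from 46.5% to 19.7% for both agents over IL-13, from 47.9% to 22.6% over butyrate and from 47.3% to 23.9% over untreated. Treh and Slc2a5 had the fewest counts of the members, but their estimates did not have the largest SE. For IL-13 over untreated the SE was 0.18 for Treh and 0.14 for Slc2a5, against 0.19 for both Lct and Mgam.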

Other observations

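Several sugar-related genes outside the 8 differed in how they followed the 2 agents. Hk2, a second hexokinase gene, stood at 125 ± 3.16 CPM untreated, 164 ± 15.2 with IL-13, 190.5 ± 6.36 with butyrate and 258 ± 30.7 with both (SD, n = 3), so that, as for Slc2a2, its mean was higher with butyrate than with IL-13. Fbp2, a fructose bisphosphatase of gluconeogenesis, fell with butyrate (-0.41 ± 0.08, edgeR adjusted p = 0.0042) and with IL-13 (-0.52 ± 0.08, adjusted p = 7.7e-05), from 123 ± 4.43 CPM to 92.7 ± 1.74 and 86.1 ± 6.61, and was at 64.5 ± 5.58 with both. Slc2a9, the gene of the urate carrier GLUT9, rose with IL-13 from 17.6 ± 1.34 to 30.5 ± 4.2 CPM (0.79 ± 0.13, adjusted p = 8.5e-05) and was at 27.5 ± 3.64 with both agents.

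Of the pathway genes named, Aldh2 and Klf4 passed the test of the interaction, but the call was lost in 12 of 19 alternative fits for Aldh2 (adjusted p from 0.0011 to 0.12) and in 6 of 19 for Klf4 (0.00042 to 0.077). Without both libraries high in Lars2 neither passed, and Aldh2 also did not with scaling by library total alone (0.52, edgeR adjusted p = 0.063). Aldh2, an aldehyde dehydrogenase gene, was at 203 ± 13.3 CPM untreated, 247 ± 24.3 with butyrate and 201 ± 18.4 with IL-13, but at 364 ± 15.8 with both (interaction 0.58 ± 0.13, edgeR adjusted p = 0.033). Klf4, a transcription factor gene of differentiating epithelium, fell with butyrate alone from 87.8 ± 3.35 to 64.4 ± 4.67 CPM and was at 161 ± 10.8 with IL-13 and 189 ± 26.1 with both (interaction 0.68 ± 0.14, adjusted p = 0.021). Foxa2, a factor of endoderm, fell with butyrate from 18.2 ± 2.28 to 9.48 ± 1.59 CPM (-0.94 ± 0.16, adjusted p = 0.00092), and with both agents it was at 4.76 ± 1.03.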
